A study of Mus musculus with 3 samples.

Results

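The canonical histone genes of mouse lie in the Hist1, Hist2, Hist3 and Hist4 gene clusters, and 54 of them were counted here in sections of distal colon, intact or wounded. They were chosen by their symbols, which start with Hist1h, Hist2h, Hist3h or Hist4h, and by a count of at least 1 UMI in any of the 3 libraries. Of 67 such symbols among 32285 features, 13 had no UMI, and 19759 features in all had at least 1. The members were 6 of 6 H1 genes, 10 of 18 H2A genes, 15 of 18 H2B genes, 11 of 12 H3 genes and 12 of 13 H4 genes. Since the members were selected on their UMI counts, their presence in these libraries is a description and not a result.

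The study used Visium slides, whose barcoded spots bind poly(A) RNA from a frozen section placed on them, so that each captured molecule can be counted once at its position through a unique molecular identifier (UMI). The WT intact library came from unwounded distal colon of Hgfac WT mice, the WT wound library from colonic wounds of Hgfac WT mice at day 2, and the KO wound library from colonic wounds at day 2 of mice labelled Hgfac KO. Hgfac encodes a serine protease that activates hepatocyte growth factor. Each library pooled 3 biological replicates on 1 capture area, no label ties a spot to an animal, and neither age nor strain is stated. All 3 libraries came from 1 slide with a capture area each, so that area and group cannot be told apart. An intact KO library was not analysed here, so an effect of genotype without a wound could not be compared.

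The libraries held 502 spots and 8180099 UMIs in WT intact, 640 spots and 11306771 UMIs in WT wound, and 572 spots and 8930574 UMIs in KO wound. Levels are given as CPM, the UMIs of a gene per 1000000 UMIs of its library, with exact Poisson intervals at 95% that cover counting error only, since a library is 1 sample. With 1 library per group no test between groups was possible and no p-value is given. Each section fell into 3 connected pieces of tissue, and the range over pieces is given as a description, since pieces are not tied to animals. Where 3 values follow each other without a name, they are those of WT intact, WT wound and KO wound, in this order. Hgfac itself had 627, 1072 and 438 UMIs, so the library labelled KO still held UMIs of the targeted gene. Which bases were deleted is not given, and 3′ counts outside a deletion check no label. Markers of the labelled tissue were present: the 16 epithelial genes summed to 21727, 22513 and 21959 CPM and the 10 smooth muscle genes to 11517, 8351 and 6788 CPM. Spots with more epithelial than smooth muscle UMIs, called epithelium-led here, made up 47.0%, 63.4% and 73.1% of the spots. A spot covers several cells, so fewer cells of a type and less RNA per cell cannot be told apart in any of these values.

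Histone proteins package DNA into nucleosomes, in which H2A, H2B, H3 and H4 form the core and H1 binds the linker DNA. Most cluster genes are transcribed in S phase, when DNA is copied, and their mRNAs end in a stem-loop bound by the protein SLBP instead of a poly(A) tail, while some of them also give polyadenylated transcripts in cells that have left the cycle. An assay that captures poly(A) tails therefore counts the polyadenylated transcripts of these genes and misses much of the stem-loop form, and the values below describe what was captured. In the colon, cells cycle in the lower crypt and differentiate as they move to the surface.

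All 54 members were matched to RefSeq genes of GRCm38.p6 by symbol or synonym, 41 on chromosome 13, 10 on chromosome 3, 2 on chromosome 11 and 1 on chromosome 6. RefSeq promoter windows, from 250 bases before to 50 bases after the start of a gene, existed for 49 members. The windows of 5 genes are shown because 3 of them had the lowest WT wound over WT intact ratios among the members with a window and at least 50 UMIs, while Hist1h1c and Hist3h2a had nearly level counts. Capitals mark the matches to short motifs known from histone promoters, searched on both strands: TATAAA and the CCAAT box, the octamer ATTTGCAT, the H1 box AAACACA and the core GGTCCG of the H4 element called site II.
Hist1h4h, chr13:23530794-23531093, plus strand: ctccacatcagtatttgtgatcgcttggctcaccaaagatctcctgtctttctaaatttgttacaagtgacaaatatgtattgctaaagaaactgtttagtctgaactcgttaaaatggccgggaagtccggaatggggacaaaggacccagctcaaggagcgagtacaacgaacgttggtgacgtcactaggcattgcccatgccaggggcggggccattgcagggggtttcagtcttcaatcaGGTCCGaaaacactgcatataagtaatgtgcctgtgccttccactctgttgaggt
Hist1h4i, chr13:22041313-22041612, minus strand: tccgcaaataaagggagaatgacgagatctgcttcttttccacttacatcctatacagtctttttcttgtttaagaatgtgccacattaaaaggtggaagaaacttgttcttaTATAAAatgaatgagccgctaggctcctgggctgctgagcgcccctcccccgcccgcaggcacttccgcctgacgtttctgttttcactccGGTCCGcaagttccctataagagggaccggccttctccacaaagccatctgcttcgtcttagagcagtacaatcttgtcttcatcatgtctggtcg
Hist3h2ba, chr11:58948661-58948960, plus strand: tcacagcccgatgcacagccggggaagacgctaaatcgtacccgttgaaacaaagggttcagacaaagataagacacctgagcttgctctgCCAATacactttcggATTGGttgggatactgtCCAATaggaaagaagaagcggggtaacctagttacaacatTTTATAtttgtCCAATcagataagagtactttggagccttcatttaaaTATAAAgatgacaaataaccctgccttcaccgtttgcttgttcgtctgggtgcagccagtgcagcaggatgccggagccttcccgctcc
Hist1h1c, chr13:23738557-23738856, plus strand: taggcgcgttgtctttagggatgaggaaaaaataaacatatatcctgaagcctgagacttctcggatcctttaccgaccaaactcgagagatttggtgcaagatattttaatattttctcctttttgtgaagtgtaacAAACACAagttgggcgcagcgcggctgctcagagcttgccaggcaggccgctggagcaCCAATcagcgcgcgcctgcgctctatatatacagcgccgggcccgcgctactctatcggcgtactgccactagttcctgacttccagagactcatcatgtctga
Hist3h2a, chr11:58954435-58954734, plus strand: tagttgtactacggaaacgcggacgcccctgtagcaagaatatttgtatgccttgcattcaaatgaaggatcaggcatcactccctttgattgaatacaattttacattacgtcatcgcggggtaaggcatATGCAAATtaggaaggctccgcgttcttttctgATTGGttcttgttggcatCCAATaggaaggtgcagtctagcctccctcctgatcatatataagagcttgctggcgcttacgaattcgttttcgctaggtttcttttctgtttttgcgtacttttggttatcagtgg

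The motifs followed the class of the gene. CCAAT was in the windows of 41 of 49 members and in 37.9% of all 27025 promoter windows of the table, but in only 3 of the 11 H4 windows. GGTCCG was in 10 of 11 H4 windows against 8.39% of all windows, AAACACA in 5 of 6 H1 windows against 7.14%, and the octamer in 4 of 10 H2A and 5 of 13 H2B windows against 1.75%. TATAAA was in 28 of the 49 windows and in 14.2% of all windows. Hist1h4h and Hist1h4i, which were lower in the wounds, both hold the H4 core, and Hist3h2ba holds 4 CCAAT matches and 2 TATAAA matches. These matches describe letters in a window and say nothing of which factor bound there. The genes Hist1h2bc and Hist2h2be had no window.

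The captured histone UMIs were unevenly spread over the members. Hist1h1c, which encodes the linker histone H1.2, and Hist1h2bc, which encodes an H2B, together held most of them. Hist1h2bc gave 53.1% of all member UMIs in intact tissue, 33.7% in the WT wound and 29.1% in the KO wound. Hist1h1c gave 30.7%, 53.1% and 57.7%, so the order of these genes was opposite in intact and wounded colon. These are shares of captured UMIs and not levels per transcript length, so they do not rank the genes by expression. Only 11 members had at least 50 UMIs over the 3 libraries, and the other 43 had 1 to 29. Just inside the rule for members lay Hist1h2bf, Hist1h3f, Hist1h3i and Hist2h2ab with 1 UMI, and nearest to the minimum of 50 lay Hist1h2be and Hist3h2ba with 75 and Hist1h2bj with 29.

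**Figure D1:**
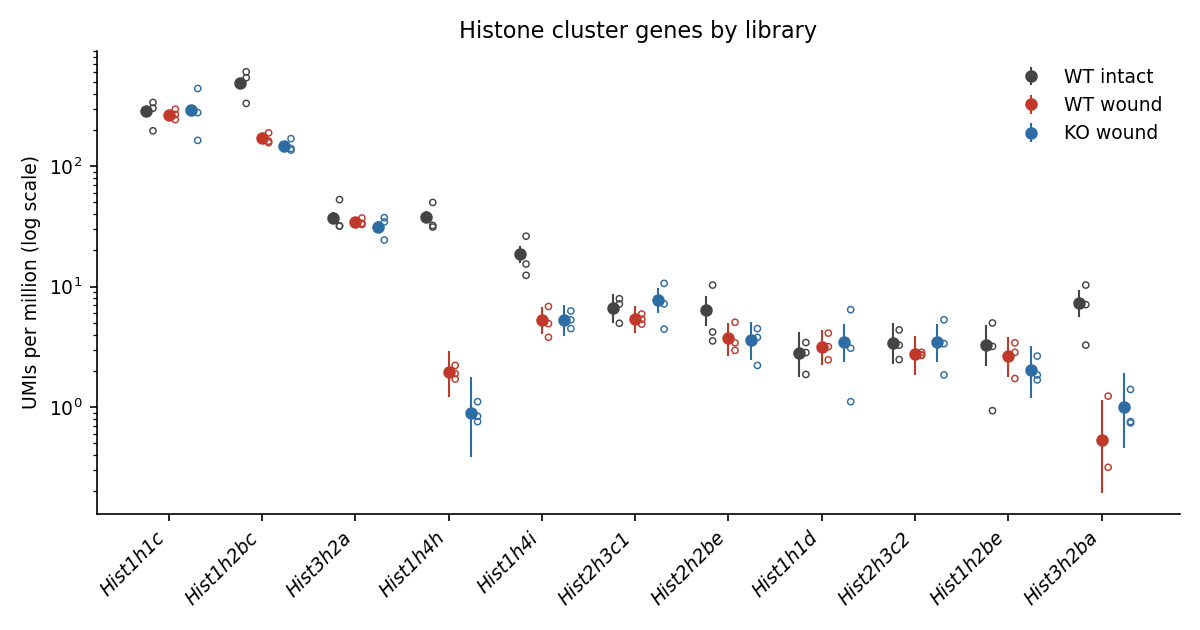
Level of the 11 members with at least 50 UMIs, in CPM on a log axis, in the 3 libraries. Filled points are libraries with 95% counting intervals and open points the 3 tissue pieces, with the 1 piece at 0 (Hist3h2ba, WT wound) not drawn; Hist1h4h is at 38.0 in WT intact and at 1.95 and 0.896 in the wounds, while Hist1h1c lies between 268 and 291.

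The first comparison asked how the captured histone mRNAs of wounded colon differed from those of intact colon in WT mice. Summed over all members they were at 932 CPM in intact tissue, 504 in the WT wound and 505 in the KO wound. Both wound libraries were thus lower than the intact library by nearly the same factor, and the WT wound ratio was 0.541 (95% counting interval 0.523 to 0.560). The pieces ran from 807 to 1082 CPM in WT intact, from 468 to 527 in WT wound and from 366 to 688 in KO wound, so each wound library's pieces lay below the intact ones. The classes differed: H2B and H4 lay below a ratio of 0.5, and H1, H2A and H3 did not.

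H4, the core histone that pairs with H3, had the lowest wound ratio of the 5 classes. Its 12 members summed to 552 UMIs or 67.5 CPM in intact tissue, 105 UMIs or 9.29 CPM in the WT wound and 67 UMIs or 7.5 CPM in the KO wound. The WT wound ratio was 0.138 (0.111 to 0.170), and it was 0.249 (0.192 to 0.321) without Hist1h4h, the H4 member with the most UMIs. The level was lower in both wound libraries than in WT intact for all 12 H4 members, most of them on few UMIs. The share of all genes lower in both wounds was not computed, so this count has no background beside it.

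Hist1h4h (GRCm38 chr13:23531044-23531478) had 311 UMIs in intact tissue, 22 in the WT wound and 8 in the KO wound. It was at 38.0 CPM (31.2 to 50 over pieces), 1.95 (1.71 to 2.22) and 0.896 (0.758 to 1.11). The wound libraries lay far below every piece of intact colon. The WT wound ratio was 0.0512 (0.0316 to 0.0789), the lowest of the 12402 genes that reached 50 UMIs in WT intact and WT wound together. Hist1h4h reached 50 UMIs only through the intact library, where it is high, so its rank is a description. Its UMIs were found on 178 spots of WT intact, 20 of WT wound and 8 of KO wound.

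Hist1h4i (chr13:22040960-22041362) had 152, 60 and 47 UMIs. These were 18.6, 5.31 and 5.26 CPM, and the pieces of WT intact (12.4 to 26.2) did not overlap those of WT wound (3.80 to 6.84). The WT wound ratio was 0.286 (0.208 to 0.387), rank 77 from the lowest among the genes tested. The pieces of both wounds overlapped. Sequence identity between the H4 genes was not examined. How reads that fit several of them were assigned is not given in the sources used here, so the split between H4 members is uncertain.

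H2B, the partner of H2A in the nucleosome core, was also lower in wounds. The 15 members summed to 521 CPM in intact tissue, 178 in the WT wound and 156 in the KO wound, with a WT wound ratio of 0.342 (0.324 to 0.360). Without Hist1h2bc the sum was 26.4, 8.05 and 8.85 CPM and the ratio 0.305 (0.236 to 0.391), so the lower H2B level did not come from that gene alone. The level was lower in both wound libraries for 14 of 15 H2B members, again with no share over all genes computed.

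Hist1h2bc (chr13:23684199-23692480) had 4047 UMIs in intact tissue, 1923 in the WT wound and 1313 in the KO wound. It was at 495 CPM (332 to 607 over pieces), 170 (157 to 189) and 147 (136 to 169), and the intact pieces lay wholly above those of both wounds. The WT wound ratio was 0.344 (0.325 to 0.363), rank 132 from the lowest. RefSeq gives this gene a span of 8282 bases and 2 transcripts, against 435 bases and 1 transcript for Hist1h4h.

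Hist3h2ba (chr11:58948911-58949372), an H2B gene of the Hist3 cluster, had 60 UMIs in intact tissue, 6 in the WT wound and 9 in the KO wound. These were 7.33, 0.531 and 1.01 CPM, and the WT wound ratio of 0.0723 (0.0255 to 0.167) was the 4th lowest of all genes tested. Its neighbour Hist3h2a begins 5312 bases away and was nearly level (see the H2A values), so the members of this cluster did not move alike. By start and end positions Hist3h2ba overlaps the RefSeq gene Gm51864 and Hist3h2a overlaps Trim17. Strand and exons were not compared, and how reads of such pairs were assigned was not checked.

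Of the other H2B members, Hist2h2be, an H2B variant known from mouse olfactory neurons, had 52, 42 and 32 UMIs, or 6.36, 3.71 and 3.58 CPM, with a WT wound ratio of 0.584 (0.380 to 0.895). Its pieces overlapped between the libraries. Hist1h2be had 27, 30 and 18 UMIs, or 3.30, 2.65 and 2.02 CPM, and a ratio of 0.804 (0.462 to 1.41), an interval that holds 1. Hist1h2be spans 37455 bases in RefSeq and overlaps Gm33387 by position. How reads of this pair were assigned was not checked, so its count is uncertain. Hist1h2bj had the most UMIs of the members under 50, with 28 in intact tissue, 0 in the WT wound and 1 in the KO wound. Against a floor of 3 UMIs for the WT wound library it was at least 12.9-fold lower in WT wound.

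**Figure D2:**
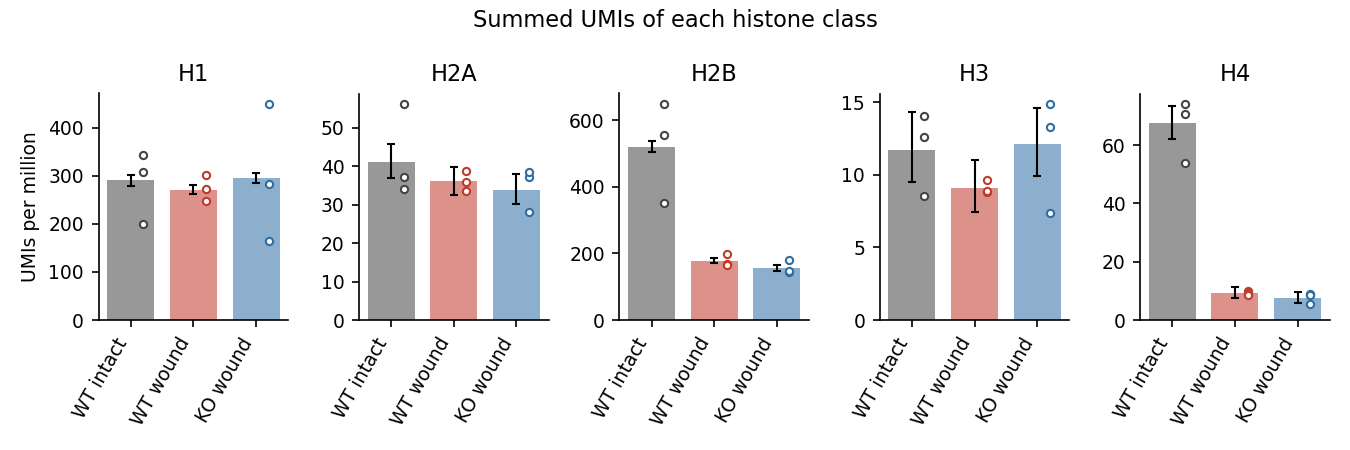
Summed CPM of the members of each histone class in the 3 libraries. Bars are libraries with 95% counting intervals and open points the 3 tissue pieces; H4 is at 67.5, 9.29 and 7.5 and H2B at 521, 178 and 156, while the H1 bars lie between 272 and 296.

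The linker histone H1 was nearly level. Its 6 members summed to 291, 272 and 296 CPM, almost all of it from Hist1h1c (chr13:23738807-23739531). Hist1h1c had 2344, 3026 and 2601 UMIs, or 287 CPM (197 to 338 over pieces), 268 (244 to 297) and 291 (164 to 441). The pieces of all 3 libraries overlapped, and the WT wound ratio was 0.934 (0.885 to 0.986). Hist1h1d, which encodes the linker histone H1.3, had 23, 36 and 31 UMIs, or 2.81, 3.18 and 3.47 CPM, and a ratio of 1.13 (0.653 to 2.0). The 4 H1 members under 50 UMIs, among them the testis gene Hist1h1t, summed to 13, 11 and 9 UMIs.

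H2A was nearly level as well, through 1 gene. Hist3h2a had 306, 391 and 279 UMIs, or 37.4, 34.6 and 31.2 CPM, and a WT wound ratio of 0.924 (0.794 to 1.08). The other 9 H2A members summed to 30, 16 and 23 UMIs, with a WT wound ratio of 0.386 (0.196 to 0.731). The ratio of the class was 0.876 (0.757 to 1.02) with Hist3h2a, so the class value and the value of the weaker members differ by more than 1.5 times.

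H3 could be compared only on few UMIs. The 11 members summed to 96, 103 and 108 UMIs, or 11.7, 9.11 and 12.1 CPM, with a WT wound ratio of 0.776 (0.582 to 1.04). Hist2h3c1 had 54, 61 and 69 UMIs, or 6.60, 5.40 and 7.73 CPM, with a ratio of 0.817 (0.557 to 1.2), and Hist2h3c2 had 28, 31 and 31 UMIs, or 3.42, 2.74 and 3.47 CPM, with a ratio of 0.801 (0.465 to 1.39). Both intervals hold 1. These genes are near-identical copies, so the split of UMIs between them is uncertain.

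Counting a gene as lower at a ratio of at most 0.5 and as higher at a ratio of at least 2, with at least 50 UMIs over both libraries, 4 of the 11 members tested were lower in WT wound than in WT intact: Hist1h2bc, Hist1h4h, Hist1h4i and Hist3h2ba. Among all 12402 genes tested, 3.08% were lower and 3.29% higher, and no member was higher. The same 4 members had 3 WT wound pieces wholly below the 3 WT intact pieces, which held for 6.89% of all genes, while no member had pieces wholly above, as 15.6% of all genes did. The median log2 ratio of the 11 members was -0.32 and that of all genes 0.09. Hist1h4h and Hist3h2ba passed the minimum of 50 UMIs only through the intact library, where they are high, so these counts describe the members tested and not all members. The 43 members under 50 UMIs summed to 223, 74 and 72 UMIs, a WT wound ratio of 0.24 (0.182 to 0.314), and the level was lower in both wounds for 32 of them and higher in both for 2. Of these 43, 6 had UMIs only in WT intact, so they were lower in both wounds by definition, and 7 had none there. The same share over all genes was not computed.

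The next question was where in the tissue the members were captured. In WT intact, Hist1h2bc was at 591 CPM in the 236 epithelium-led spots and at 262 in the 266 other spots, a ratio of 2.25 (2.07 to 2.46), and Hist1h1c was at 318 and 209, a ratio of 1.52 (1.38 to 1.68). Some members had the opposite pattern. Hist1h4h was at 28.2 CPM in epithelium-led and 61.9 in other spots of WT intact, a ratio of 0.455 (0.362 to 0.572), Hist3h2ba at 3.28 and 17.2, a ratio of 0.191 (0.105 to 0.337), and Hist2h3c2 at 1.38 and 8.37, a ratio of 0.165 (0.0629 to 0.391). As classes, H2B was higher in epithelium-led spots of WT intact (ratio 2.07), and H3 (0.531) and H4 (0.647) were lower there.

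The gradient of Hist1h2bc was smaller in the wounds. It was at 175 CPM in epithelium-led and 155 in other spots of WT wound, and at 153 and 122 in KO wound, so the ratio of epithelium-led to other spots was 1.13 (1.01 to 1.27) and 1.25 (1.08 to 1.46). Hist1h1c kept its gradient, with ratios of 1.55 (1.40 to 1.71) in WT wound and 2.41 (2.11 to 2.77) in KO wound. In the 10% of spots with the highest share of epithelial UMIs, Hist1h1c reached 513 CPM in intact tissue, 529 in the WT wound and 690 in the KO wound, against 222, 206 and 199 in the other spots. Hist1h2bc reached 857 CPM in these spots of WT intact, but 226 in WT wound and 228 in KO wound.

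The spots richest in other markers set the members apart. Among the 10% of spots of WT intact with the highest share of enteric nerve UMIs, Hist3h2ba was at 63.4 CPM (44.6 to 87.4), against 3.03 in the other spots, and 37 of its 60 UMIs lay in these 50 spots. The 10% of spots richest in nerve UMIs of WT wound and KO wound held 2 Hist3h2ba UMIs each, or 2.70 and 3.43 CPM. These spots were ranked within each library and were not equally rich in nerve. The enteric nerve genes summed to 10450, 3901 and 2045 CPM inside them, and to 110, 63.3 and 51.9 CPM outside. Over all spots the enteric nerve genes summed to 847, 315 and 182 CPM, and 8 of 10 were lower in WT wound. Outside the nerve-rich spots Hist3h2ba had 23, 4 and 7 UMIs in the 3 libraries, and WT wound over WT intact was 0.125 (0.0314 to 0.366). The part of nerve content in the low Hist3h2ba of the wounds was not tested beyond these values. Hist1h4h was highest in the spots of WT intact richest in smooth muscle (74.6 CPM) and fibroblast genes (72.3 CPM) and low in those richest in crypt base genes (7.07 CPM), the list that includes the stem cell gene Lgr5.

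**Figure D3:**
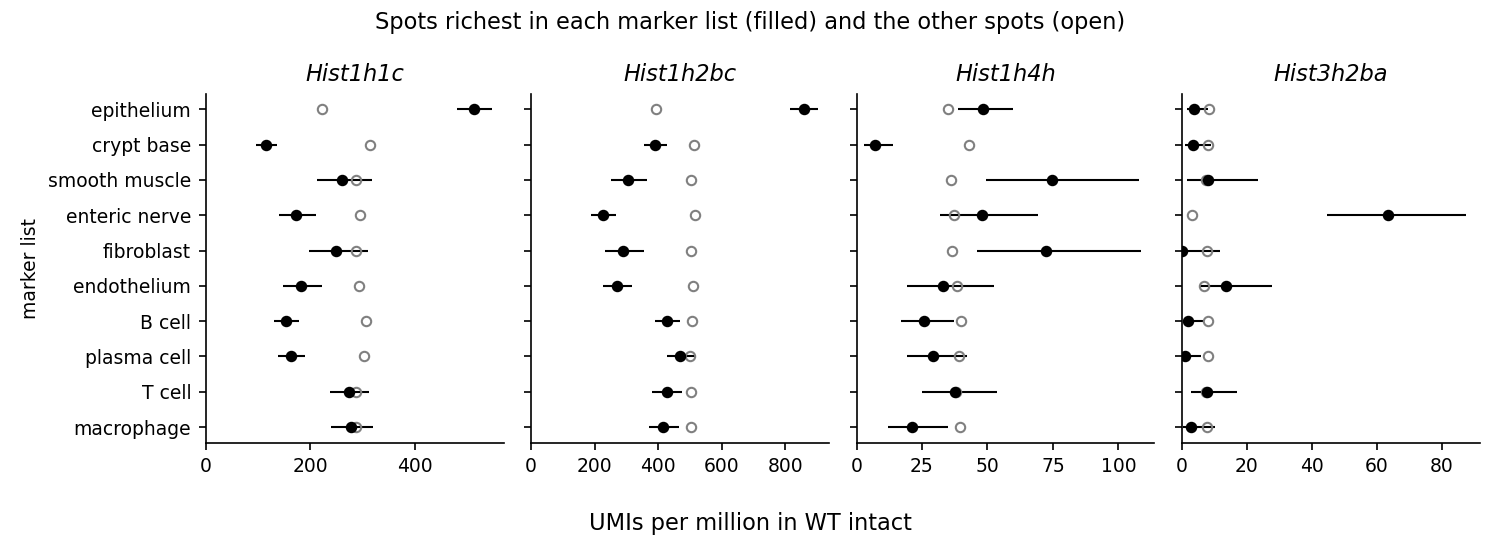
Level of 4 members in WT intact, in CPM, in the 10% of spots with the highest UMI share of each marker list (filled, with 95% counting intervals) and in the other spots (open). Hist3h2ba stands at 63.4 in nerve-rich spots against 3.03 elsewhere, and Hist1h1c and Hist1h2bc are highest in spots rich in epithelial genes.

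Since the sections differed in tissue content, the wound comparison was repeated within each class of spots. The 4 members called lower over all spots had ratios below 1 in both, and at most 0.5 except for Hist1h2bc in other spots. For Hist1h4h the WT wound ratio was 0.0652 (0.0364 to 0.109) in epithelium-led spots and 0.0374 (0.0135 to 0.0834) in other spots, and for Hist1h4i it was 0.277 and 0.288. Hist1h2bc had a lower ratio in epithelium-led spots (0.296, 0.278 to 0.314) than in other spots (0.589, 0.518 to 0.669), and these intervals do not overlap. Hist3h2ba was at 0.105 (0.0199 to 0.356) and 0.0676 (0.0134 to 0.212). Hist1h1c was nearly level in both, at 0.914 and 0.899. Fibroblast genes summed to 2567, 5332 and 5343 CPM, and macrophage genes to 702, 1368 and 1783. The part of these cells in the histone values was not tested.

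**Figure D4:**
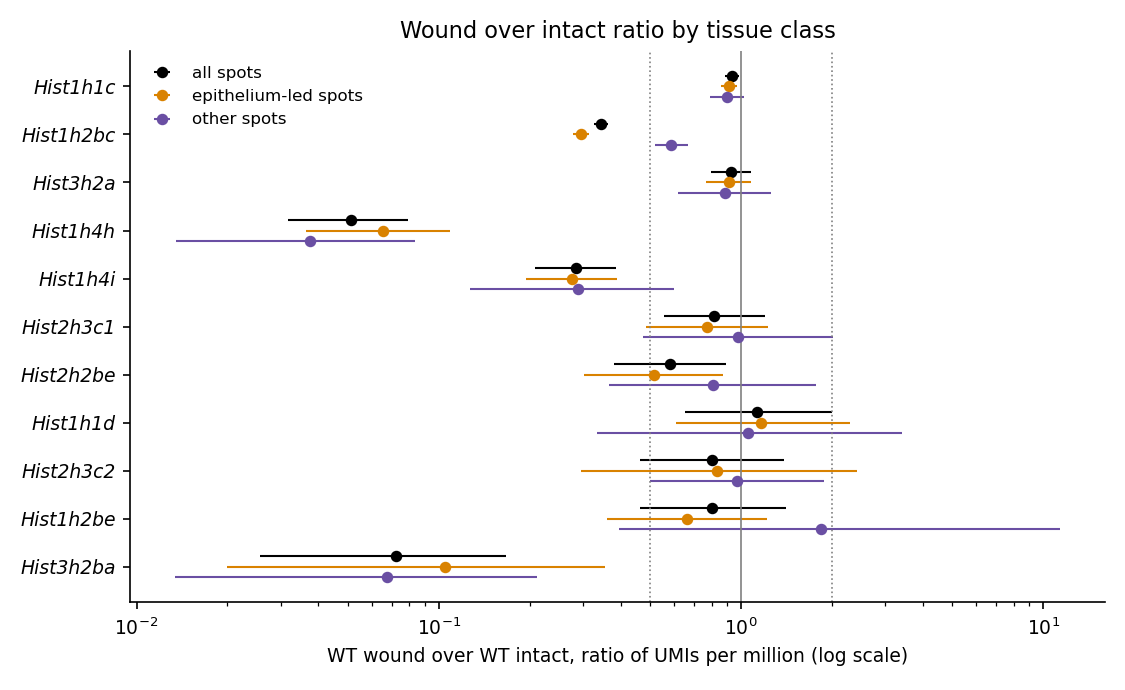
Ratio of WT wound over WT intact for the 11 members with at least 50 UMIs, on a log axis, over all spots and within epithelium-led and other spots, with 95% counting intervals. Dotted lines mark ratios of 0.5 and 2; Hist1h4h, Hist3h2ba and Hist1h4i lie below 0.5 in both classes of spots, and Hist1h2bc does so in epithelium-led spots.

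The members were then set against 3 genes of cycling cells in the same spots: Mki67, a marker of cells in cycle, Top2a, a topoisomerase of G2 and mitosis, and Pcna, the clamp of the replicating DNA polymerase. Mki67 was at 51.8, 33.3 and 43.1 CPM, Top2a at 41.2, 27.4 and 35.2, and Pcna at 98.7, 90.9 and 102. All 3 were lower in WT wound than in WT intact, with ratios of 0.643 (0.558 to 0.741), 0.666 (0.569 to 0.779) and 0.922 (0.840 to 1.01), of which the last interval holds 1, and none was below 0.5. The H4 class had a lower ratio than any of them, and went from 1.30 UMIs per Mki67 UMI in WT intact to 0.279 in WT wound and 0.174 in KO wound. In epithelium-led spots Mki67 had a WT wound ratio of 0.568 (0.486 to 0.663), and in other spots, where H4 was at 0.0988 (0.0613 to 0.152), Mki67 was at 0.994 (0.699 to 1.42).

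Within a library, the summed histone UMIs, most of them from Hist1h1c and Hist1h2bc, were lowest where the cycle genes were highest. The spots of each library were ranked by their share of UMIs of 30 S phase and 25 G2 and M phase genes, lists that hold neither members nor the 3 genes above, and cut into 4 groups of about equal number. From the lowest to the highest group, Hist1h1c went from 445 to 397, 177 and 113 CPM in WT intact, from 418 to 279, 204 and 126 in WT wound, and from 563 to 212, 127 and 91.2 in KO wound. The highest group over the lowest was 0.255 (0.221 to 0.293), 0.301 (0.267 to 0.339) and 0.162 (0.138 to 0.190). Mki67 ran the other way along the same groups, with ratios of 15, 12.7 and 9.95. Hist1h2bc followed Hist1h1c less steeply, with ratios of 0.457 (0.417 to 0.501), 0.783 (0.689 to 0.890) and 0.381 (0.316 to 0.457). Hist1h4h was at 0.313 (0.208 to 0.459) in WT intact. These ratios used all UMIs. With every spot thinned to the same depth, Hist1h1c was at 0.365 (0.272 to 0.486), 0.430 (0.333 to 0.552) and 0.238 (0.175 to 0.319). Hist1h2bc was then at 0.592 (0.484 to 0.723), 0.678 (0.516 to 0.889) and 0.541 (0.386 to 0.751). Hist1h4h in WT intact was at 0.388 (0.199 to 0.720). The highest group thus stayed lower. Thinning made Hist1h1c less steep in every library, and Hist1h2bc in WT intact and KO wound only.

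Not all members or classes had this pattern. The H4 class had ratios of 0.778 (0.614 to 0.983), 0.822 (0.477 to 1.39) and 1.11 (0.574 to 2.08). In thinned spots the H4 class was at 0.693 (0.437 to 1.09), 0.224 (0.0235 to 1.08) and 1.34 (0.409 to 4.70), all holding 1. Hist2h2be was higher at a high cycle share, with a ratio of 7.97 (2.80 to 31.2) in WT intact, 2.42 (1.02 to 6.17) in WT wound and 3.04 (1.03 to 10.0) in KO wound, on 52, 42 and 32 UMIs. Hist1h4i had ratios of 1.53 (1.01 to 2.34), 0.991 (0.494 to 1.95) and 1.40 (0.672 to 2.87), with wide intervals in the wounds, and after thinning of every spot to 5000 UMIs they were 1.39 (0.508 to 3.97), 0.168 (0.00365 to 1.38), on 6 and 1 UMIs, and 2.35 (0.537 to 14.1), all holding 1. Without Hist1h1c and Hist1h2bc the members summed to ratios of 0.917 (0.789 to 1.07), 0.812 (0.667 to 0.987) and 0.559 (0.435 to 0.713). In thinned spots the same sums were at 0.809 (0.601 to 1.09), 0.474 (0.301 to 0.731) and 0.634 (0.400 to 0.992), so the ratio of the WT wound was less than that of all its UMIs by more than 1.5 times.

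**Figure D5:**
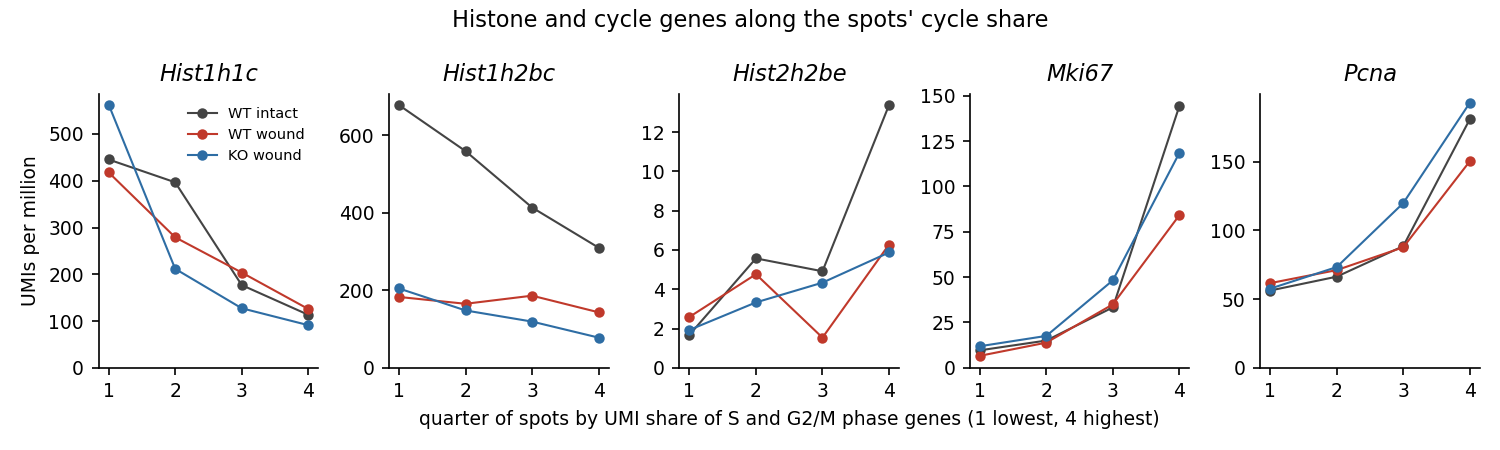
Level in CPM of 3 members, Mki67 and Pcna in 4 groups of spots of each library, ranked from the lowest (1) to the highest (4) UMI share of S phase and G2 and M phase genes. Hist1h1c goes from 445, 418 and 563 to 113, 126 and 91.2, while Mki67 and Pcna are highest in group 4 of every library.

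The cycle share also follows position along the crypt. Among epithelium-led spots alone, an alternative chosen after seeing the data, the highest over the lowest group was 0.239 (0.199 to 0.286) for Hist1h1c in WT intact, 0.248 (0.214 to 0.288) in WT wound and 0.142 (0.117 to 0.173) in KO wound. After thinning these values were 0.259, 0.313 and 0.177. Hist1h4h in WT intact was at 0.161 (0.0713 to 0.321), and after thinning at 0.764 (0.218 to 2.51), an interval that holds 1. Hist2h2be was at 17.1 (4.23 to 149.7), 3.72 (1.07 to 16.3) and 4.26 (1.19 to 18.9), and after thinning at 3.06 (0.546 to 31.0), 5.05 (0.565 to 239) and 1.52 (0.174 to 18.1), all of which hold 1. Along these same groups the epithelial genes, many of them of mature surface cells, were at 0.312, 0.428 and 0.370, the crypt base genes at 2.84, 2.12 and 2.0, and the smooth muscle genes at 2.20, 3.26 and 3.14. The smooth muscle genes were at 1.23, 1.74 and 2.23 after thinning. The parts of epithelial maturity and of muscle content in the histone gradient were not tested.

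Depth differs between spots, so each was thinned to 5000 UMIs, which left out 59, 29 and 37 shallower spots of WT intact, WT wound and KO wound. In thinned spots with a Mki67 UMI the members summed to 624 CPM against 880 in spots without one in WT intact, 334 against 456 in WT wound and 308 against 410 in KO wound. The ratios were 0.709 (0.616 to 0.813), 0.732 (0.613 to 0.870) and 0.75 (0.624 to 0.896), and those for Hist1h1c were 0.501, 0.538 and 0.563. Split by Pcna the ratios were 0.760 (0.686 to 0.841), 1.09 (0.975 to 1.22) and 0.925 (0.816 to 1.05), so only WT intact had a lower histone level in Pcna spots beyond counting error, while Hist1h1c alone was higher in Pcna spots of the WT wound, at 1.2 (1.02 to 1.41). For Hist2h2be the highest over the lowest group by cycle share was 2.69 (0.646 to 15.7) in thinned spots of intact tissue, 1.01 (0.269 to 3.77) in the WT wound and 2.02 (0.289 to 22.3) in the KO wound. That difference was therefore not detectable at this depth, and in each of the 3 libraries the thinned ratio was less than that of all UMIs by more than 1.5 times.

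The second comparison asked how wounds of mice labelled Hgfac KO differed from WT wounds. Over all spots the members summed to 504 CPM in WT wound and 505 in KO wound, a ratio of 1.0 (0.963 to 1.04). That value depended on the spots and the depth: the ratio was 1.04 (0.993 to 1.08) in epithelium-led spots, 0.766 (0.689 to 0.850) in other spots and 0.894 (0.824 to 0.970) after thinning. Of the 8 members with at least 50 UMIs over both libraries none was lower, where 0.746% of all 12463 genes were, and none was higher, where 0.73% were. None had pieces wholly below, as 2.24% of genes did, or wholly above, as 5.79% did. The median log2 ratio was 0.06 for the 8 members and 0.05 for all genes. With so few members and so few genes called, these counts do not set the members apart. Both comparisons use the WT wound library.

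Single members shifted a little against each other. Hist1h2bc was at a KO over WT wound ratio of 0.864 (0.805 to 0.928) and Hist1h1c at 1.09 (1.03 to 1.15), but the KO pieces of Hist1h1c ran from 164 to 441 CPM and enclosed all WT wound pieces. After thinning Hist1h2bc was at 0.786 (0.681 to 0.905). Hist1h1c was then at 0.961 (0.857 to 1.08), on the other side of 1 and with an interval that holds it. In epithelium-led spots Hist1h1c was at 1.13 (1.07 to 1.2), and in other spots at 0.725 (0.619 to 0.848). Hist2h3c1 had a ratio of 1.43 (1.0 to 2.06) and the H3 class of 1.33 (1.0 to 1.76), with overlapping pieces. After thinning they were at 1.29 (0.608 to 2.78) and 0.999 (0.580 to 1.71). Hist3h2a was at 0.903 (0.772 to 1.06), Hist1h4i at 0.992 (0.662 to 1.48), Hist2h2be at 0.965 (0.589 to 1.56), Hist2h3c2 at 1.27 (0.744 to 2.15) and Hist1h1d at 1.09 (0.652 to 1.81), all with intervals that hold 1. Hist1h4h, Hist3h2ba and Hist1h2be had under 50 UMIs over both wound libraries. Neutrophil genes summed to 385 CPM in the WT wound and 702 in the KO wound. Most of these UMIs came from Ly6g, named for that reason, with 4028 in WT wound and 4082 in KO wound. Ly6g also had 2370 UMIs in WT intact, and its KO over WT wound ratio was 1.28. Of 8 neutrophil genes tested 6 were higher in KO wound, where 0.73% of all genes were, among them S100a8 at 16.1 and Cxcr2 at 15.4. The part of neutrophils in the member ratios was not tested.

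The cycle genes were somewhat higher in the KO wound. Mki67, Top2a and Pcna were at KO over WT wound ratios of 1.29 (1.12 to 1.49), 1.28 (1.09 to 1.51) and 1.13 (1.03 to 1.23), with overlapping pieces. Of 30 S phase genes 1 was higher, Rrm2, a subunit of ribonucleotide reductase, at 2.23, and the median log2 ratio was 0.37. The G2 and M phase genes had none of 25 called and a median of 0.38. In spots that were not epithelium-led, Mki67 was at 2.09 (1.52 to 2.88) and the members summed to 0.766 (0.689 to 0.850), or to 0.822 (0.632 to 1.06) without Hist1h1c and Hist1h2bc. In epithelium-led spots Mki67 was at 1.13 (0.960 to 1.33), Top2a at 1.14 (0.947 to 1.38) and Pcna at 1.02 (0.915 to 1.13), all with intervals that hold 1.

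The genes for variant histones, histone mRNA processing and histone chaperones gave few such low ratios in WT wound over WT intact. Of the 11 variant and linker histones outside the clusters, most of which give polyadenylated mRNA, 10 were tested and 1 was lower: Cenpa, the histone H3 variant of centromeres, at 0.342, a gene also on the G2 and M phase list. H2afv was at 0.565 and H2afy2 at 1.52, and the summed list at 0.935 (0.918 to 0.952). None of 15 tested genes for histone mRNA processing was called, with Mblac1 at 0.699 and Ncbp1 at 1.41, and Slbp, the stem-loop binding protein, chosen after its values were seen, at 0.903. None of 21 histone chaperones was called, with Asf1b at 0.638 and Supt16 at 1.39. Of 25 G2 and M phase genes 4 were lower, among them Cenpa, Ube2c (0.378) and Plk1 (0.437), with a median log2 ratio of -0.51. That is a larger share than the 3.08% of all genes tested, whose median was 0.09. None of 30 S phase genes was called, with Tk1 at 0.523, Tyms at 0.569 and a median of -0.15.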

How the data were processed

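UMIs were counted on Visium spots over tissue, and each library was 1 sample. The authors deposited raw counts per gene and spot, made with Space Ranger 1.2.1 per the file headers and build mm10 per the submitters' processing notes. Aligner and annotation: not given in the sources used here. Deposited position tables (other values: tissue flag, row and column) gave the tissue pieces, connected groups of at least 20 neighbouring spots. Sections were 10 µm thick. UMIs were summed over spots and scaled to the library total. The floor was 3 UMIs per library, 0.367 CPM for the intact library, 0.265 for the WT and 0.336 for the KO wound library. Ratios have exact conditional binomial intervals at 95%. PCR copies were collapsed by UMI, and intervals and floors cover counting error only. Spots with more UMIs of the epithelium than of the smooth muscle list were epithelium-led. Mitochondrial genes held 4.26% to 5.60% of UMIs, and the median depth was 11416 to 14638 UMIs per spot. Libraries shared 149 to 279 spot barcodes, which mark array positions.

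The members, the gene lists and the rules were chosen with earlier results of these data known. All members with at least 50 UMIs over 3 libraries are named, the others by counts or as the ends of a range, and up to 3 genes of each other list by distance of the ratio from 1. Alternatives were other scalings (TMM from edgeR 4.0.16 in R 4.3.3, used for factors only, and median-of-ratios size factors), totals without mitochondrial genes, equal weight per spot, thinning, tissue classes, single pieces left out and other thresholds. The computation of ratios was tested on simulated data. Scripts ran in Python 3.11.15 with scipy 1.17.1, numpy 2.4.6 and pandas 2.3.3. Promoters came from RefSeq, GRCm38.p6. Histology images were not used.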

Additional observations from a re-analysis of the deposited data

How the results depend on the processing

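Of the values of single genes, with some of the H4 class, recomputed under alternatives, 249 of 295 stayed within the counting interval and 46 moved. For WT wound over WT intact the sum of all members was 0.516 with TMM totals, 0.509 with size factors, 0.560 with equal weight per spot, 0.508 in epithelium-led and 0.627 in other spots. H1 was 0.879 with size factors and 0.809 after thinning. H2B was 0.322 with size factors, 0.393 with equal weight, 0.391 after thinning, 0.297 in epithelium-led and 0.554 in other spots. H4 was 0.0832 after thinning and 0.0988 in other spots. Without the member with the most UMIs, H2A was 0.386, H2B 0.305 and H4 0.249. At a minimum of 20 UMIs, 8 of 15 members tested were lower, as were 4.33% of all genes tested. Some of the 8, Hist3h2ba and Hist1h2bj among them, reached that minimum only through the intact library, where they are high. This count therefore describes the members tested and not all members. For KO over WT wound the sum was 0.928 with equal weight, 0.894 after thinning and 0.766 in other spots, and H1 was 0.935, 0.958 and 0.726. H2A was 0.75 in other spots and 1.82 without its top member, H2B 0.801 after thinning, 0.791 in other spots and 1.10 without its top member. After thinning, H3 was 0.999 and H4 1.2. At 20 UMIs 1 of 11 members was lower (1.55% of all genes) and 1 higher (1.4%), and in epithelium-led spots 1 of 8 was higher (0.971%). The highest over the lowest group of spots by cycle share, over all members, was 0.558 in WT intact and 0.373 in KO wound after thinning. In epithelium-led spots, added after seeing the data, it was 0.397 and 0.429 in WT intact and WT wound, and 0.435 and 0.345 in WT wound and KO wound after thinning. With at least 2 times more epithelial than muscle UMIs, epithelium-led over other spots was 1.72 in WT intact. Leaving out 1 tissue piece at a time gave 0.505 to 0.603 for all members, 0.840 to 1.03 for H1 and 0.292 to 0.406 for H2B in WT wound over WT intact, and 0.849 to 1.12 for all members and 0.851 to 1.30 for H1 in KO over WT wound. The causes of these shifts were not tested. Depth limits all members under 50 UMIs. No paired analysis was possible because each group is 1 library.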
